A study of Mus musculus with 8 samples.

Results

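The smooth muscle contractile genes were a list of 10 genes, chosen by name out of the 23469 genes counted in mouse lung: the actins Acta2 and Actg2, the myosin heavy chain Myh11 and its kinase Mylk, the actin-binding proteins Tagln, Cnn1, Smtn and Lmod1, the intermediate filament protein Des, and the coactivator Myocd. All 10 had counts and all 10 passed the filter on low counts in each comparison. The study asked whether overexpression of DDAH1, the enzyme that degrades the nitric oxide synthase inhibitor ADMA, modifies the response of the lung to an allergen. Wild type (WT) C57BL/6 mice and DDAH1-transgenic (TG) mice were given PBS or house dust mite extract (HDM) intratracheally, 3 times per week for 3 weeks. A dose was 50 µl of PBS, or 100 µg of HDM in the same volume. Airway responsiveness to methacholine was measured 24 hours after the last dose, and lavage samples and lungs were taken after that measurement. Each of the 4 groups (WT PBS, WT HDM, TG PBS and TG HDM) consisted of RNA pooled from 4 mice and sequenced as 2 libraries, so that every SD (n = 2 libraries) and every p-value below covers the spread between 2 libraries of 1 pool and not the spread between mice. The promoter of the transgene, and the age and sex of the mice, are not given in the sources used here.

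Smooth muscle of the airway and of the vessel wall contracts when calcium and calmodulin activate myosin light chain kinase (Mylk), which phosphorylates the light chains of smooth muscle myosin (Myh11) and lets it pull on actin filaments. Nitric oxide opposes this: it activates soluble guanylate cyclase, and the cGMP formed acts through protein kinase G to relax the muscle. Most contractile genes are switched on by serum response factor, which binds a short promoter element called the CArG box, together with the coactivator myocardin (Myocd). Acta2 is also expressed by myofibroblasts and pericytes, Des by cardiac and skeletal muscle, and Myocd by cardiac muscle.

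Total counts ranged from 5694928 (TG HDM replicate 1) to 11929374 (WT PBS replicate 2), and the 10 genes together took between 0.0404% and 0.0643% of a library. The value of 3 counts, taken as the floor of detection, lay between 0.232 and 0.449 CPM (read counts scaled to library size), with library sizes normalized over all 8 libraries together. The targeted gene Ddah1 had 47.7 and 34.3 CPM in the 2 WT PBS libraries, 76.9 and 53.8 in TG PBS, 43.1 and 44.7 in WT HDM, and 34.9 and 33.4 in TG HDM. Under HDM both libraries labelled TG were thus below both WT libraries, against their label, an arrangement held by 25% of all genes. By edgeR's quasi-likelihood test the log2 fold change of Ddah1, TG against WT, was -0.32 under HDM (adjusted p = 0.637). Under PBS it was 0.66 (adjusted p = 0.358, edgeR). Whether reads of the transgene were counted under Ddah1 is not given in the sources used here. Xist, which is expressed from the inactive X chromosome of females, was between 11.3 and 20.8 CPM in the PBS libraries and between 2048 and 3040 CPM in the HDM libraries, and the Y-linked Ddx3y went the other way (58.7 to 69.0 against 0.179 to 0.301 CPM). The HDM and PBS pools thus differed in the sex of the mice, and in every comparison of HDM with PBS treatment and sex cannot be told apart. The same holds for the interaction of genotype with treatment. In whole lung, fewer cells of a type and less RNA per cell cannot be told apart either.

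The promoter of Acta2, which encodes the smooth muscle α-actin, is shown because it was the only one of those examined to hold CArG-like elements. RefSeq promoters (GRCm38.p6) were at hand for Acta2, Des, Lmod1, Cnn1, Smtn and Mylk. The 250 bases before the start of transcription in that reference were searched on both strands for the CArG box. They were also searched for the CArG box with 1 central G or C. For Acta2, Cnn1 and Mylk that start lay inside the annotated span of the gene, so that the places found depend on the choice of start. The exact box was present in 1.467% of 32851 promoters of that length and in 0 of these 6, and the relaxed form in 7.245% of promoters. The Acta2 promoter at chr19:34255374-34255623 (minus strand) held the relaxed form at 2 places, beginning 84 and 34 bases before the start, and both are in capitals:
Acta2: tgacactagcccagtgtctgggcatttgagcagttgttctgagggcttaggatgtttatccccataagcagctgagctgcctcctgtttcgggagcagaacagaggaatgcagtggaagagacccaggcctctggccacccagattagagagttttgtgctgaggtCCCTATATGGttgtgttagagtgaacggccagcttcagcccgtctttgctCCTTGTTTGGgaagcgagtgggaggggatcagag

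The 2 smooth muscle actins are nearly the same protein, which bears on how well their reads can be told apart. Aligned without gaps at their 3′ ends, the coding sequences of Acta2 (1131 bases) and Actg2 (1128 bases) were 83.8% identical, and the proteins they encode differed at 5 of 376 aligned residues. Their longest run of identical bases was 29, shorter than the reads of 50 bases, and no stretch of 50 coding bases of Actg2 occurred in another gene. That run is shown with its surroundings, with the bases shared by both genes in capitals, for Acta2 at chr19:34245045-34245093 and for Actg2 at chr6:83519901-83519949, both on the minus strand of GRCm38:
Acta2: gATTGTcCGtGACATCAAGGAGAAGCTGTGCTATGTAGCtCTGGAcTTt
Actg2: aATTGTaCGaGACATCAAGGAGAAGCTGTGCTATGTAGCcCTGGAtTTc
Of the stretches of 50 bases of Acta2, 0.647% also occurred in the cytoplasmic actin Actg1 and its pseudogenes. Sharing was larger for Tagln, where 74.7% of such stretches also occurred in Gm48529, a gene that overlaps it on the genome. It was also larger for Smtn (16.2%, overlapping Gm11946) and for Mylk (5.74%, overlapping E130310I04Rik and Gm21691). Both strands of these genes were searched. Whether the counting used the strand of a read is not given in the sources used here. The values of Tagln, Smtn and Mylk may thus hold reads of the overlapping genes.

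Compared per kilobase of coding length, the level of the 10 genes spanned more than an order of magnitude, and Acta2 led in 3 of the 4 groups. The length was that of a single transcript per gene, for Mylk 5.85 kilobases. The rank of a gene with transcripts of different coding length depends on that choice. In WT PBS the order of mean levels was Acta2 (72.8 ± 4.63 CPM per kilobase), Mylk (44.2 ± 1.40), Tagln (37.9 ± 0.0615), Des (21.0 ± 2.48), Actg2 (15.8 ± 8.08), Cnn1 (15.6 ± 5.01), Smtn (12.2 ± 0.685), Myh11 (12.1 ± 1.61), Myocd (1.90 ± 1.16) and Lmod1 (1.55 ± 0.522). Acta2, Mylk and Tagln each stood above the next gene in both libraries, whereas Des, Actg2, Cnn1, Smtn and Myh11 overlapped with their neighbours in that order, and so did Myocd with Lmod1. In WT HDM, Acta2 had 104 ± 16.3 CPM per kilobase, again above Mylk (43.5 ± 1.11) in both libraries. In TG PBS the mean of Mylk (50.1 ± 2.58 CPM per kilobase) was above that of Acta2 (44.1 ± 8.17), and the libraries of these 2 genes overlapped. In TG HDM, Acta2 was first again (53.5 ± 0.696), before Tagln (42.9 ± 11) and Mylk (39.8 ± 1.73), and Myocd was last at 0.461 ± 0.0275 CPM per kilobase.

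**Figure D1:**
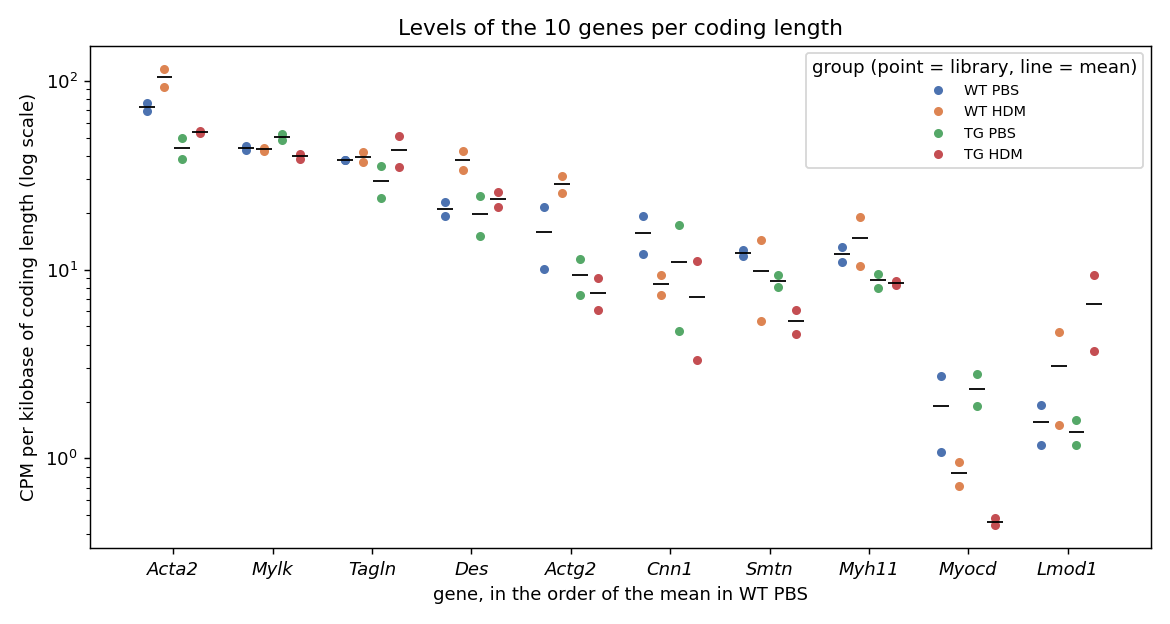
Level of each of the 10 genes in CPM per kilobase of coding length (y axis, log scale), in the order of their mean in WT PBS (x axis). Points are the 2 libraries of a group and lines are group means; Acta2 stands at 72.8 in WT PBS and 104 in WT HDM, and Myocd at 1.90 in WT PBS and 0.461 in TG HDM.

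Of the actins, Acta2 had its lower values in TG mice under both treatments. Its libraries had 86.0 and 78.6 CPM in WT PBS, 105 and 131 in WT HDM, 56.4 and 43.3 in TG PBS, and 59.9 and 61.0 in TG HDM. All 4 TG libraries were below all 4 WT libraries, and both WT HDM libraries were above both WT PBS libraries. The share of all genes with all 8 libraries split by genotype, or by treatment as for Myocd below, is not given here. Actg2, the γ-actin typical of enteric and other visceral smooth muscle, had 11.4 and 24.2 CPM in WT PBS, 28.6 and 35.1 in WT HDM, 8.28 and 12.9 in TG PBS, and 6.89 and 10.1 in TG HDM. Its WT HDM libraries were above those of every other group, whereas WT PBS overlapped TG PBS, and TG PBS overlapped TG HDM.

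Myh11, the heavy chain that carries the motor, was less uniform. Its libraries had 78.6 and 65.1 CPM in WT PBS, 113 and 62.2 in WT HDM, 56.4 and 47.5 in TG PBS, and 49.4 and 51.9 in TG HDM. The TG libraries were again all below the WT libraries, but the 2 WT HDM libraries (SD 35.9) lay further apart than those of any other group (SD 1.74 to 9.56). Mylk, which also makes a longer non-muscle kinase in endothelium, was the most abundant of the 10 in CPM and the steadiest. It had 264 and 253 CPM in WT PBS, 259 and 250 in WT HDM, 304 and 282 in TG PBS, and 240 and 226 in TG HDM, so that the TG PBS libraries were the highest and the TG HDM libraries the lowest.

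Among the actin-binding proteins, transgelin (Tagln) had 22.9 CPM in both WT PBS libraries, 22.2 and 25.3 in WT HDM, 14.4 and 21.3 in TG PBS, and 30.5 and 21.1 in TG HDM, and every pair of groups overlapped except TG PBS, which was below both WT groups. Calponin (Cnn1), which restrains the myosin ATPase, had 10.8 and 17.1 CPM in WT PBS, 6.52 and 8.34 in WT HDM, 4.19 and 15.3 in TG PBS, and 9.88 and 2.94 in TG HDM. Both TG groups of Cnn1 were split by more than 3-fold between libraries of the same pool, so that no order of the groups could be read except that WT PBS was above WT HDM and TG HDM. Smoothelin (Smtn), found in fully contractile smooth muscle, had 35.2 and 32.5 CPM in WT PBS, 39.7 and 14.8 in WT HDM, 22.5 and 25.8 in TG PBS, and 16.9 and 12.6 in TG HDM. WT PBS was above TG PBS and TG PBS above TG HDM in each library, whereas 1 WT HDM library was above WT PBS and the other between the TG HDM libraries.

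Leiomodin 1 (Lmod1), which starts new actin filaments, had the lowest counts beside Myocd. It had 2.11 and 3.43 CPM in WT PBS, 2.68 and 8.34 in WT HDM, 2.10 and 2.85 in TG PBS, and 6.59 and 16.8 in TG HDM, the last from 44 and 217 counts. Both TG HDM libraries were above all PBS libraries, and 1 of the WT HDM libraries lay between them. Desmin (Des), the intermediate filament that links the contractile apparatus, had 32.0 and 27.0 CPM in WT PBS, 47.3 and 59.8 in WT HDM, 34.5 and 21.1 in TG PBS, and 36.2 and 30.1 in TG HDM. Both WT HDM libraries stood above all others, as with Actg2, and the other groups of Des overlapped. Myocd had 7.64 and 3.02 CPM in WT PBS, 2.68 and 2.01 in WT HDM, 5.29 and 7.82 in TG PBS, and 1.35 and 1.24 in TG HDM, where 9 and 16 reads were counted. All HDM libraries of Myocd were below all PBS libraries.

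**Figure D2:**
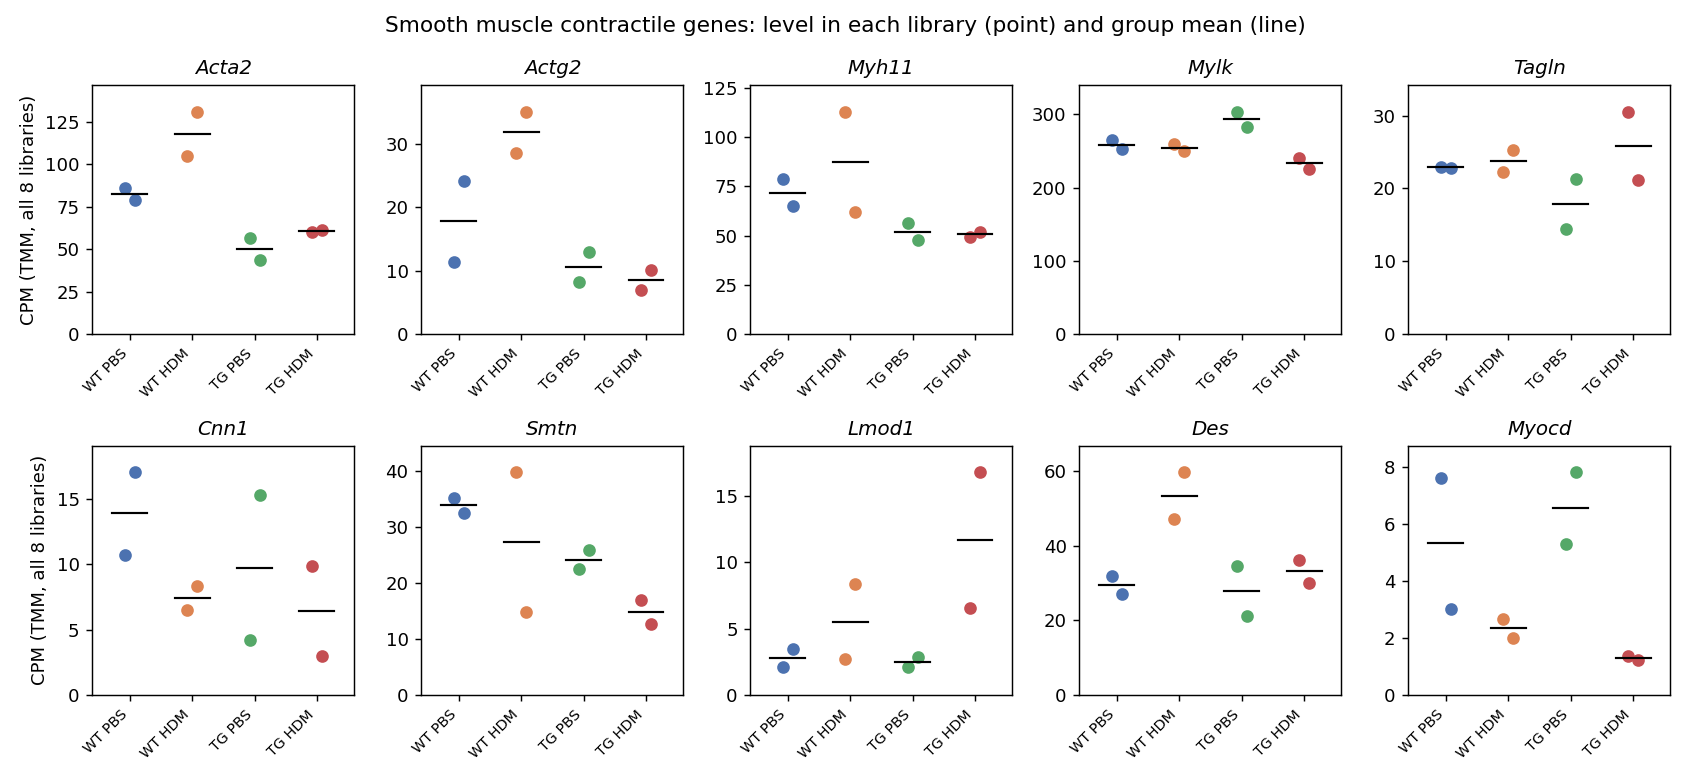
Level of each of the 10 genes in CPM (y axis, from 0, a scale of its own per panel) in the 4 groups (x axis); points are libraries and lines are group means. Acta2 and Myh11 lie lower in all TG than in all WT libraries (share of all genes not given), and Actg2 and Des are highest in the 2 WT HDM libraries. The 2 libraries of a pool lie far apart for Cnn1, for Lmod1 in TG HDM (6.59 and 16.8 CPM) and for Smtn in WT HDM (39.7 and 14.8).

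The median level over the 10 genes was 26.5 ± 1.27 CPM in WT PBS, 32.2 ± 2.76 in WT HDM, 19.8 ± 2.00 in TG PBS and 21.4 ± 3.37 in TG HDM, so that both TG groups were below both WT groups. The 10 genes lay at different distances from their own median profile. With each gene's log2 CPM centred over the 8 libraries, the root mean square difference from it was smallest for Mylk (0.23), Myh11 (0.26), Tagln (0.29) and Acta2 (0.36). It was largest for Myocd (0.90) and Lmod1 (1.05), which had the lowest counts. The median over 11878 other genes with at least 50 counts per library on average was 0.48. Unlike the 10, these genes did not enter the profile, so that their distances are not comparable with those above. The nearest of these genes were Pla2g2d (0.08), Tbck (0.09), Atp2c1 (0.10), Card6, Adam19, Eif3c, Myo1e, Soat1, Zfp280d and H2-T24, the last at 0.12.

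In PBS-treated mice, TG against WT, none of the 10 genes was called at an adjusted p-value under 0.05 with edgeR's quasi-likelihood test, where 0.657% of all genes tested were called. DESeq2 also called 0 of them, and 2 were at an unadjusted p under 0.05, as were 9.98% of all genes. Acta2 had a log2 fold change of -0.73 (SE 0.22, unadjusted p = 0.00341, adjusted p = 0.17, edgeR) and Myh11 of -0.48 (SE 0.22, adjusted p = 0.485, edgeR). The log2 fold change was below 0 for 8 of the 10 genes, against 49.9% of all genes, and their median was -0.42, against 0.00 over all genes tested. Both TG libraries were below both WT libraries for Acta2, Myh11, Tagln and Smtn, an arrangement held by 20.4% of all genes, and above them for Mylk, as for 20% of all genes. Without TG PBS replicate 1, Acta2 was called at a log2 fold change of -0.93 (adjusted p = 0.0265, edgeR), in a fit that called 432 of 15625 genes. As in every fit that leaves out a library, the lone library of that group is assumed to vary like the other group.

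In HDM-treated mice, TG against WT, Actg2 was lower and was the only 1 of the 10 called, where 2.44% of all genes were called and 0.599% were called lower. Its log2 fold change was -1.86 (SE 0.41, adjusted p = 0.0372, edgeR), a level in TG HDM of 0.276 times that in WT HDM. The call did not hold with an offset for coding length (-1.94, adjusted p = 0.0508, edgeR), nor without WT HDM replicate 1 (-2.02, adjusted p = 0.314, edgeR) or replicate 2 (-1.70, adjusted p = 0.299, edgeR), where 6 and 20 of all genes were called.

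Acta2 had a log2 fold change of -0.92 (SE 0.23, adjusted p = 0.0669, edgeR) in the same comparison, Myh11 of -0.75 (adjusted p = 0.238, edgeR), and Des of -0.65 (adjusted p = 0.303, edgeR). Acta2 was past the threshold with DESeq2, without the low-count filter and when either TG HDM library was left out (adjusted p = 0.0279 without replicate 1, where 612 of all genes were called, and 0.0127 without replicate 2, where 1595 were, edgeR). It was not past it with the length offset, with median-ratio size factors or when either WT HDM library was left out, where its adjusted p reached 0.512 (edgeR) at a log2 fold change of -0.75 without replicate 2. Of the 10 log2 fold changes 8 were below 0, against 49.5% of all genes, with a median of -0.70 against 0.01 over all genes tested. For 6 of the 10 both TG libraries were below both WT libraries, against 25% of all genes, and 4 had an unadjusted p under 0.05, against 16.2%. Lmod1, at 1.13 (SE 0.69, adjusted p = 0.453, edgeR), and Tagln, at 0.16, were the 2 above 0. The sums of marker lists of other cell types, muscle or not, also differed between the genotypes under HDM. The sum of the 5 epithelial markers overlapped there, at 18287 to 21699 CPM in WT HDM and 18257 to 26287 in TG HDM. Most of it was Scgb1a1 (means of 11171 and 10777 CPM) and Sftpc (6412 and 9725). Both TG libraries were above both WT libraries for Sftpc (log2 fold change 0.64) and Ager (0.55). They were below them for Sftpb (-0.65) and Foxj1 (-0.91), and 0 of the 5 were called with edgeR. The 8 markers of cardiac and pulmonary vein myocytes summed to between 199 and 214 CPM in WT HDM and between 82.1 and 110 in TG HDM, and to between 310 and 349 in WT PBS and 147 and 175 in TG PBS, where 7 of 7 tested were below 0 and 1 of them, Myh6, was called. The 8 pericyte markers summed to between 243 and 269 CPM in WT HDM and to between 150 and 152 in TG HDM. In PBS they overlapped, at 294 to 319 CPM in WT and 261 to 341 in TG mice. The 8 fibroblast markers summed to between 1373 and 1422 CPM in WT HDM and between 1015 and 1162 in TG HDM. In PBS they were at 1146 to 1154 CPM in WT and 1067 to 1088 in TG mice. The 6 endothelial markers were at 1459 to 1513 CPM in WT HDM and 919 to 1211 in TG HDM. In PBS they went the other way, at 1949 to 1980 CPM in WT and 2324 to 2364 in TG mice. The 8 skeletal muscle markers summed to between 42.3 and 46.4 CPM in WT PBS and 253 and 277 in TG PBS, and to between 214 and 219 in WT HDM and 123 and 146 in TG HDM. The part of these cells in the differences of Acta2, Actg2, Myh11 and Des was not tested.

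In WT mice, HDM against PBS, 0 of the 10 genes were called with edgeR, where 6.74% of all genes were called. DESeq2 called Des, and 3 genes had an unadjusted p under 0.05, Des, Acta2 and Actg2, against 19.9% of all genes. Des had a log2 fold change of 0.86 (SE 0.26, unadjusted p = 0.00508, adjusted p = 0.0659, edgeR), Acta2 of 0.52 (SE 0.18, adjusted p = 0.119, edgeR) and Actg2 of 0.83 (SE 0.37, adjusted p = 0.232, edgeR), and in each both HDM libraries were above both PBS libraries, as for 25% of all genes. Cnn1, at -0.91 (adjusted p = 0.307, edgeR), and Myocd, at -1.18 (adjusted p = 0.445, edgeR), had both HDM libraries below both PBS libraries, as for 24.7% of all genes. Without WT HDM replicate 1, where 1661 of 15724 genes were called, 3 of the 10 were: Des (1.02, adjusted p = 0.0178, edgeR), Acta2 (0.67, adjusted p = 0.0281, edgeR) and Smtn (-1.20, adjusted p = 0.0301, edgeR). The median over the 10 was 0.17, against 0.02 over all genes. Skeletal muscle also uses desmin, and its 8 markers, which were all called higher here, summed to between 42.3 and 46.4 CPM in WT PBS and between 214 and 219 in WT HDM. The same markers were at 253 to 277 CPM in TG PBS, where Des was at 34.5 and 21.1 CPM, and their part in the difference of Des was not tested.

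In TG mice, HDM against PBS, Lmod1 rose and was the only 1 of the 10 called, where 13.8% of all genes were called and 8.43% were called higher. Its log2 fold change was 2.26 (SE 0.69, adjusted p = 0.049, edgeR), a level 4.78 times that in TG PBS. The call ended with median-ratio size factors (2.22, adjusted p = 0.052, edgeR), with the length offset (2.21, adjusted p = 0.0574, edgeR), and without TG PBS replicate 1 (2.04, adjusted p = 0.217, edgeR), TG PBS replicate 2 (2.49, adjusted p = 0.184, edgeR) or TG HDM replicate 2, which held most of the Lmod1 reads (1.43, adjusted p = 0.371, edgeR). Myocd had the lowest log2 fold change, -2.31 (SE 0.86, adjusted p = 0.0996, edgeR), and with Lmod1 made up the 2 genes at an unadjusted p under 0.05, against 27.7% of all genes. The HDM libraries were both above the PBS libraries for Lmod1 and Acta2, as for 28.8% of all genes, and both below them for Myocd, Mylk and Smtn, as for 28%. Acta2 had 0.30 (adjusted p = 0.528, edgeR) and Actg2 -0.29 (adjusted p = 0.788, edgeR). The median over the 10 was -0.15, against 0.03 over all genes.

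**Figure D3:**
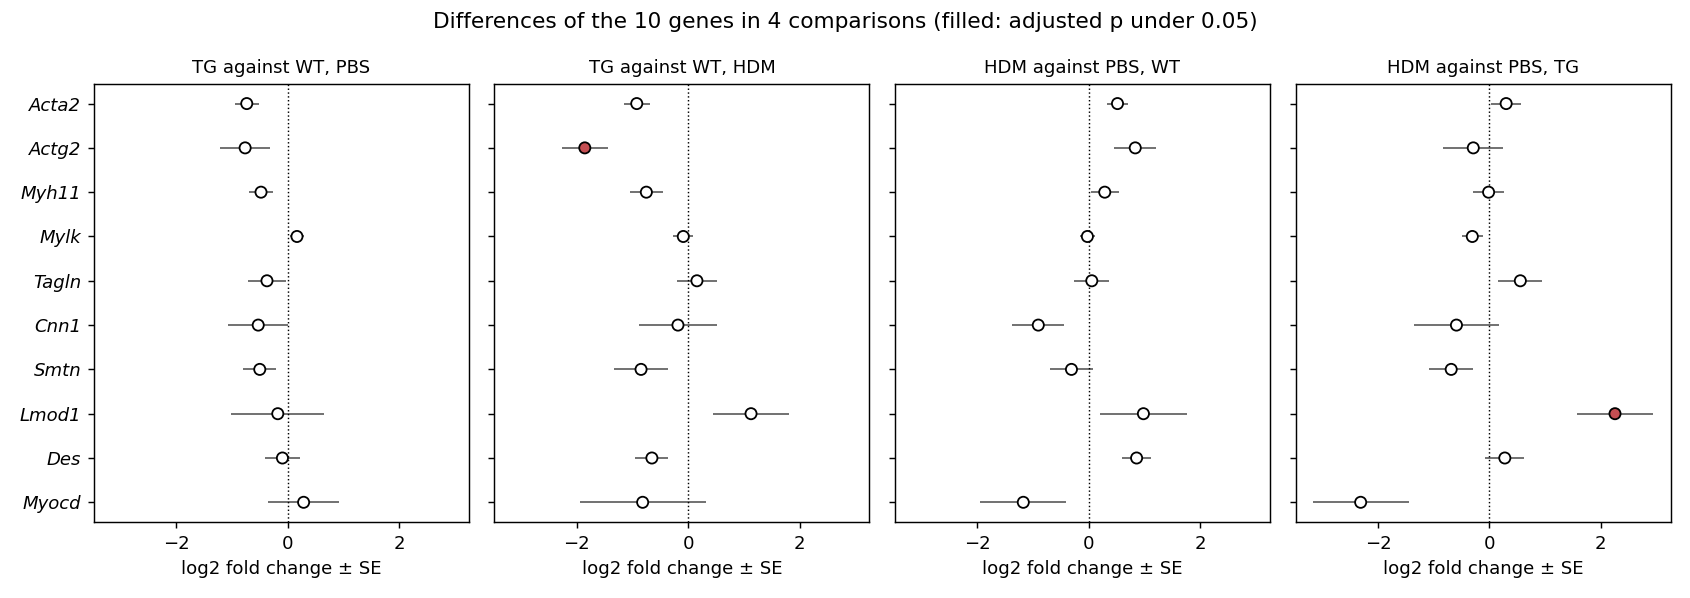
Log2 fold change of each of the 10 genes (x axis, with its standard error) in the 4 comparisons, each fitted on its own 4 libraries; filled points passed an adjusted p-value of 0.05. Only Actg2 in TG against WT under HDM (-1.86) and Lmod1 in HDM against PBS in TG mice (2.26) are filled.

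Whether the genotype difference itself differed between HDM and PBS was tested as an interaction over all 8 libraries. Because the HDM and PBS pools differed in sex, treatment and sex cannot be told apart in it. None of the 10 genes was called with edgeR, where 1.76% of all genes were called, none with DESeq2, and 0 had an unadjusted p under 0.05, against 14.7% of all genes. The interaction on the log2 scale ranged from -1.16 for Myocd (SE 1.14) to 1.26 for Lmod1 (SE 1.04), with Actg2 at -1.14 (SE 0.62, adjusted p = 0.422, edgeR) and Acta2 at -0.24 (SE 0.31, adjusted p = 0.787, edgeR). The standard errors ran from 0.22 for Mylk to 1.14 for Myocd, so that a difference of 1 on the log2 scale was about the size of the standard error for Cnn1, Lmod1 and Myocd.

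The wider contractile pathway was followed in 52 further genes, of which between 47 and 50 could be tested. Between the genotypes few of them were called. In PBS-treated mice it was 0 of 50 with edgeR (0.657% of all genes), 2 with DESeq2, and 10 at an unadjusted p under 0.05 (9.98% of all genes), although 3 were called without TG PBS replicate 1, where 432 of all genes were. In HDM-treated mice 2 of 47 were called, against 2.44% of all genes. Myl6, the essential light chain that smooth muscle shares with non-muscle cells, was higher in TG HDM (259 and 314 CPM) than in WT HDM (115 and 97.7), with a log2 fold change of 1.46 (SE 0.20, adjusted p = 0.00297, edgeR). Csrp1, a LIM protein of smooth muscle, was lower in TG HDM (148 and 186 CPM) than in WT HDM (296 and 319), at -0.84 (SE 0.19, adjusted p = 0.0448, edgeR). Both calls were lost when either WT HDM library was left out, with values from 1.36 to 1.57 for Myl6 and from -0.92 to -0.78 for Csrp1. Myl9, the regulatory light chain that Mylk phosphorylates, had 37.2 and 37.1 CPM in WT PBS, 43.9 and 23.5 in WT HDM, 23.4 and 30.1 in TG PBS, and 12.9 and 16.4 in TG HDM and was called in no comparison.

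HDM against PBS, the pathway list had 7 of 49 genes called in WT and 12 of 48 in TG mice, most of them lower (6 and 11, against 2.3% and 5.35% of all genes called lower). In WT mice, Tpm2, a tropomyosin of muscle, rose from 22.7 and 18.3 CPM in PBS to 50.9 and 50.1 in HDM (log2 fold change 1.30, adjusted p = 0.0101, edgeR). The 8 skeletal muscle markers summed to between 42.3 and 46.4 CPM in WT PBS and between 214 and 219 in WT HDM. Their part in the rise of Tpm2 was not tested. Synm, an intermediate filament protein that pairs with desmin, fell from 65.5 and 62.3 CPM to 31.4 and 19.7 (-1.32, adjusted p = 0.00896, edgeR). The 5 others called lower were Prkg1 (-0.93), Pde5a (-0.65), Pde3a (-0.74), Klf4 (-0.72) and Foxf1 (-0.69). Of the 7 calls, only that of Synm held without each library in turn. Without WT PBS replicate 1 or 2, fewer genes of the pathway were called, as were fewer of all genes. The calls of Prkg1 (adjusted p from 0.0602 to 0.275), Pde3a and Klf4 were lost without either WT PBS library, and that of Prkg1 also without WT HDM replicate 2. Without WT PBS replicate 1 alone Pde5a was lost (adjusted p = 0.0916), and without replicate 2 alone Tpm2 (0.0869) and Foxf1 (0.336).

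In TG mice under HDM, Myl6 rose from 97.5 and 98.2 CPM to 259 and 314 (log2 fold change 1.57, adjusted p = 0.00042, edgeR) and 11 genes of the pathway were called lower. Of the thin filament, Cald1 (caldesmon, an actin-binding inhibitor of myosin) fell from 390 and 376 CPM to 215 and 160 (-1.01), Tpm1 from 271 and 284 to 147 and 143 (-0.92), and Csrp1 from 315 and 393 to 148 and 186 (-1.06). Without TG PBS replicate 1 or 2, fewer genes of the pathway were called, as were fewer of all genes. Those still called were Myl6 and Pde3a in both cases and Foxf1 without replicate 1. Cald1, Tpm1, Csrp1, Gucy1a1, Gucy1b1, Prkg1 and Pde5a were not called and kept log2 fold changes between -1.47 and -0.72.

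The relaxing arm, on which nitric oxide acts, held the largest share of these calls. It lists Pde5a and Pde3a, phosphodiesterases that limit relaxation, beside genes that favour it, so that its median gives no direction of relaxation. In TG mice 5 of the 7 genes of this arm were called lower under HDM, against 5.35% of all genes. In WT mice 3 of 7 were, against 2.3%. Both HDM libraries were below both PBS libraries for 5 of the 7 in TG mice, against 28% of all genes. The same held for 6 of the 7 in WT mice, against 24.7%. The median log2 fold change over all 7 was -1.04 in TG and -0.74 in WT mice. The subunits of soluble guanylate cyclase, Gucy1a1 (330 and 307 CPM in TG PBS, 141 and 165 in TG HDM) and Gucy1b1 (77.5 and 83.7 against 32.2 and 39.7), had log2 fold changes of -1.04 and -1.14 in TG mice. The cGMP-dependent protein kinase Prkg1 went from 58.5 and 52.8 CPM to 20.2 and 21.4 (-1.39), and Pde5a, which degrades cGMP, from 330 and 250 to 153 and 148 (-0.92). Pde3a, a phosphodiesterase that cGMP inhibits, had 95.3 and 80.1 CPM in WT PBS, 53.0 and 51.8 in WT HDM, 103 and 99.5 in TG PBS, and 26.4 and 23.5 in TG HDM, a level in HDM-treated TG mice of 0.25 times that with PBS (adjusted p = 0.000564, edgeR). Between the genotypes 0 of these 7 genes were called with edgeR under either treatment, against 0.657% of all genes in PBS and 2.44% in HDM. At an unadjusted p under 0.05 were 0 in PBS, against 9.98% of all genes, and 2 in HDM, against 16.2%. Endothelial markers and pericyte markers moved with this arm: the 6 endothelial genes summed to between 2324 and 2364 CPM in TG PBS and between 919 and 1211 in TG HDM, and to between 1949 and 1980 in WT PBS and between 1459 and 1513 in WT HDM. Pericyte markers were at 261 to 341 CPM in TG PBS and at 150 to 152 in TG HDM, and the part of either cell type was not tested.

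Of the transcriptional regulators, Foxf1, a factor of lung mesenchyme and endothelium, fell under HDM in both genotypes, from 128 and 163 CPM to 84.5 and 95.9 in WT mice and from 150 and 184 to 65.7 and 56.0 in TG mice (-1.43, adjusted p = 0.00196, edgeR). It was not called in TG mice without TG PBS replicate 2 (adjusted p = 0.0962, edgeR). Srf, the partner of Myocd, was not called in any comparison and had 19.4 and 29.4 CPM in WT PBS, 26.9 and 52.4 in WT HDM, 33.3 and 31.3 in TG PBS, and 24.0 and 24.3 in TG HDM. Of the 9 contractile receptors, between 4 and 7 could be tested, and 0 were called in any comparison with edgeR. At most 2 had an unadjusted p under 0.05 in a comparison. In TG against WT under HDM all 4 tested were below 0, with a median of -1.16. In all 4 both TG libraries were below both WT libraries, against 25% of all genes. Of them 2 had an unadjusted p under 0.05 with edgeR, against 16.2% of all genes. Chrm3, the muscarinic receptor that contracts airway smooth muscle, did not exceed 2.41 CPM in any library.

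**Figure D4:**
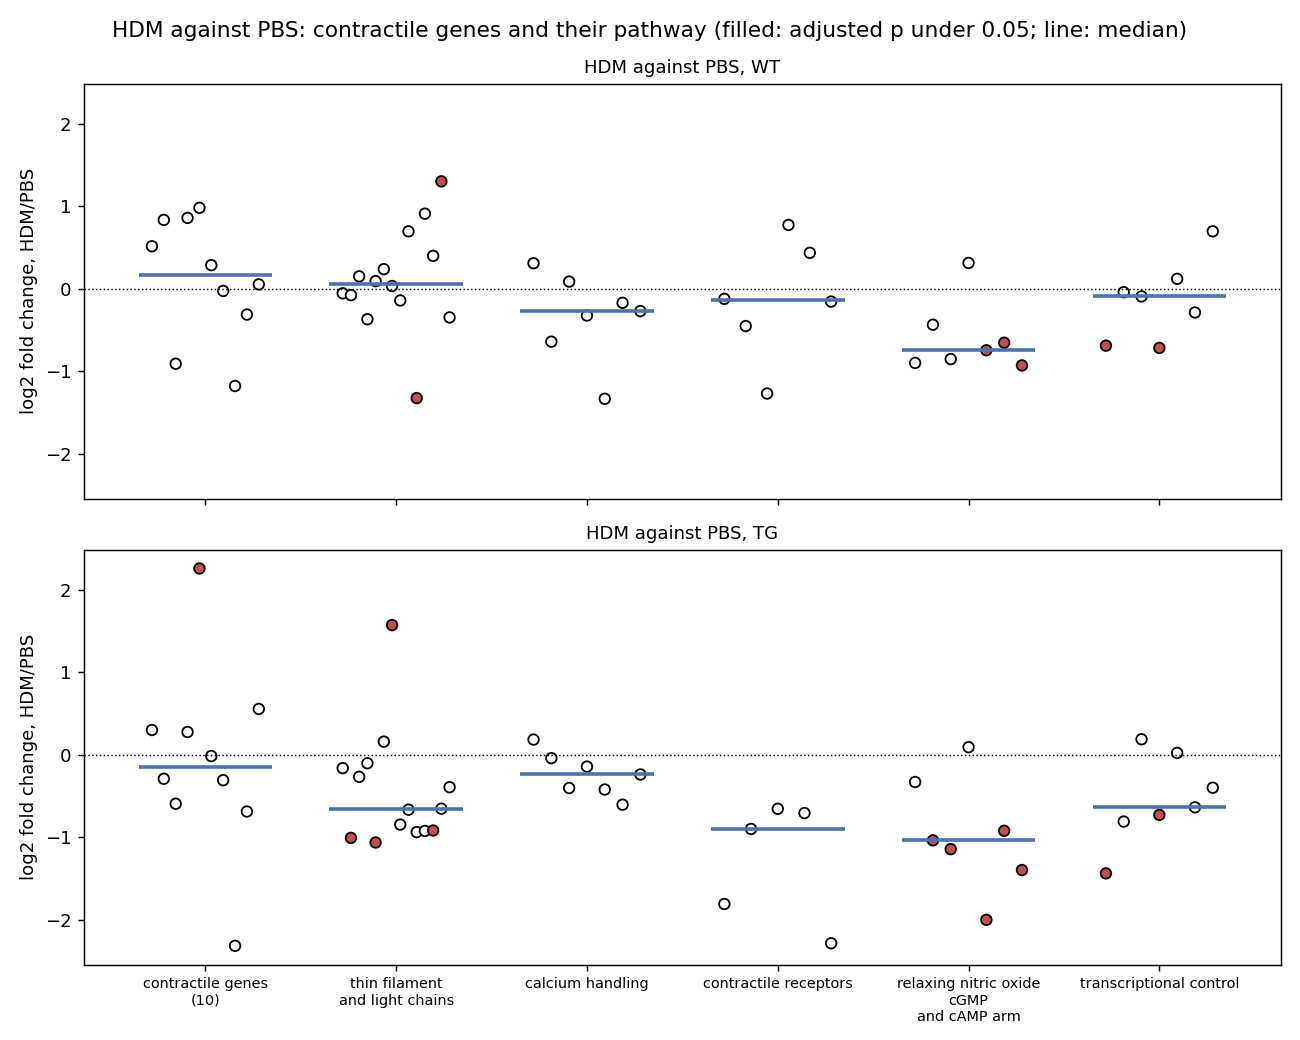
Log2 fold change of HDM against PBS (y axis) in WT and in TG mice for the 10 contractile genes and for the genes of 5 roles of the pathway list (x axis); each point is a gene, filled points passed an adjusted p-value of 0.05, and lines are medians. The relaxing nitric oxide, cGMP and cAMP arm has its median at -0.74 in WT and -1.04 in TG mice, and the contractile genes at 0.17 and -0.15. That arm also lists the phosphodiesterases Pde5a and Pde3a, which limit relaxation.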

How the data were processed

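The authors amplified pooled lung RNA, sequenced single reads of 50 bases, aligned them to mm10 with TopHat and counted reads in coding regions with ShortRead, and deposited raw counts for 23469 genes. Version numbers of these tools are not given in the sources used here. The 10 genes and the lists were chosen with earlier results of these data known. All 10 genes, pathway genes past the threshold (at most the 10 with the smallest p in a comparison) and the 10 nearest profiles are named, save for 1 role of the pathway list that is not reported here by itself and is in the counts of the list only. Myl9, Srf, Chrm3 and, in TG mice, Gucy1b1 were named beyond this rule after their values were seen.

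Each comparison was tested on its own 4 libraries with edgeR 4.0.16 (R 4.3.3; quasi-likelihood, TMM, filterByExpr with a count minimum of 10), with Benjamini-Hochberg adjustment over all genes tested and a threshold of 0.05. The interaction used all 8 libraries. CPM used TMM library sizes of all 8 libraries, and log2 CPM a prior count of 2. Coding lengths came from GENCODE M21. The procedure was tested on simulated data. Alternatives were DESeq2 1.42.0, size factors by the median ratio (RLE), no filter on low counts, library sizes without Rn45s (8.58% to 21.8% of counts) and haemoglobin, a coding length offset (loess, span 0.5), the replicate number as a block, both together, 1 fit of all 8 libraries, and leaving out each library. Replicates differed beyond sampling noise (mean chi-square per gene 14.3 to 31.8). Floors cover counting error only.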

Additional observations from a re-analysis of the deposited data

Results flagged for a closer look

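None of the 10 contractile genes was called in the interaction test, in which treatment and sex cannot be told apart. Among the pathway genes 6 of 50 were, at an adjusted p under 0.05 with edgeR, against 1.76% of all genes. The interaction was 1.52 on the log2 scale for Myl6 (115 and 97.7 CPM in WT HDM, 259 and 314 in TG HDM) and -1.34 for Tpm1 (247 and 262 CPM in WT HDM, 147 and 143 in TG HDM), and these calls held without each library in turn. It was -1.98 for Tpm2 (50.9 and 50.1 CPM in WT HDM, 22.3 and 18.5 in TG HDM), -1.28 for Pde3a and -0.96 for Cald1, each not called without any 1 of the WT PBS, WT HDM or TG PBS libraries, with values from -2.15 to -1.83, from -1.41 to -1.15 and from -1.03 to -0.88. It was -1.17 for Csrp1, not called without replicate 2 of WT PBS (-1.03), WT HDM (-1.11) or TG PBS (-1.01). Of the 8 skeletal muscle markers, 7 were also called lower in the interaction, with a median of -5.87 over the 8. Their part in the interactions of Tpm1 and Tpm2 was not tested. Across genes, coding length and the interaction had a Spearman correlation of -0.20 over 15017 genes, which share their libraries. Coding length and log2 fold change correlated at -0.26 both in TG against WT under HDM and in HDM against PBS in TG mice. The correlation was -0.02 in TG against WT under PBS and -0.08 in HDM against PBS in WT mice. The part of coding length in the interactions was not tested beyond the length offset, with which Cald1 (-0.98) and Pde3a (-1.11) were no longer called.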

How the results depend on the processing

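The count of the 10 genes called in TG against WT under HDM (1) was 2 with DESeq2, without the low-count filter, with the replicate block, with the length offset and the block together, and in 1 fit of all 8 libraries, and 0 with the length offset. In HDM against PBS the count in WT mice (0) was 1 with DESeq2, without the filter and with offset and block together, and that in TG mice (1) was 0 with RLE, with the offset and with both together. Leaving out 1 library gave 0 to 1 (TG against WT, PBS), 0 to 2 (TG against WT, HDM), 0 to 3 (HDM against PBS, WT) and 0 to 1 (HDM against PBS, TG). Without Rn45s and haemoglobin in the library sizes, the median level over the 10 genes was 32.2 CPM in WT PBS, 38.7 in WT HDM, 23.9 in TG PBS and 25.7 in TG HDM, by the construction of that scale.

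Signs turned with the length offset, alone and with the block, only for genes that were not called: Mylk (0.19 and 0.18) and Tagln (-0.12 and -0.15) in TG against WT under HDM, Tagln in HDM against PBS in WT mice (-0.077 and -0.078), Myh11 in HDM against PBS in TG mice (0.25 and 0.26) and, with both together, Myh11 in the interaction (0.022). Signs also turned without 1 library, over these ranges of log2 fold change. In TG against WT, PBS, these were Cnn1 (-1.73 to 0.14), Lmod1 (-0.47 to 0.21), Des (-0.48 to 0.23) and Myocd (-0.24 to 1.11). In TG against WT, HDM, they were Tagln (-0.15 to 0.41), Cnn1 (-1.31 to 0.46) and Smtn (-1.38 to 0.018). In HDM against PBS, WT, they were Myh11 (-0.21 to 0.64), Mylk (-0.067 to 0.0075), Tagln (-0.055 to 0.14), Smtn (-1.20 to 0.22) and Lmod1 (-0.065 to 1.58). In HDM against PBS, TG, they were Actg2 (-0.60 to 0.061), Myh11 (-0.14 to 0.10), Cnn1 (-1.72 to 0.63) and Des (-0.038 to 0.66). In the interaction they were Myh11 (-0.68 to 0.17), Cnn1 (-0.82 to 1.497) and Smtn (-0.93 to 0.48).

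The replicate numbers did not pair the libraries: differences between replicates 1 and 2 correlated between groups at -0.02 to 0.03. With the replicate block, Acta2 in TG against WT under HDM was called (-0.92), no sign turned, and all genes called went from 98, 370, 1020, 2079 and 279 (TG against WT in PBS and in HDM, HDM against PBS in WT and in TG, interaction) to 45, 625, 1118, 2806 and 363. With DESeq2 they were 217, 893, 1399, 2647 and 674, without the filter 306, 1055, 1588, 2834 and 675, and with the length offset 129, 167, 1011, 1730 and 275. Leaving out 1 library gave 75 to 432, 6 to 1595, 652 to 1661, 277 to 2676 and 138 to 721. The offset moved the share of higher calls from 75.4% to 54.5% in TG against WT under HDM, from 61.2% to 46.2% in HDM against PBS in TG mice and from 59.9% to 37.8% in the interaction. Pathway genes called in TG against WT numbered 0 to 2 in PBS and 2 to 7 in HDM over the other settings with all libraries, and 4 in HDM against PBS in WT mice with all 8 libraries in 1 fit. The cause was not tested. Depth limits Myocd and Lmod1 most, with 9 and 21 counts in their lowest libraries.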
